A study of Arabidopsis thaliana with 2 samples.

Results

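Transcripts of the mitochondrial genome were read from 2 samples of Arabidopsis thaliana hypocotyls, each hybridised to its own 1-colour ATH1 array of the Affymetrix design. A probe set, a group of short probes for 1 target, was counted as mitochondrial when the platform annotation gave it a single gene, that gene's symbol was a symbol or synonym in the mitochondrial genome of the RefSeq table, and its gene identifier belonged to no nuclear or chloroplast gene there. This gave 23 probe sets for 16 genes, out of 13513 single-gene probe sets for 13350 gene symbols in all. The annotation carries no locus codes, so the genes were placed by symbol. Whether the probes match the mitochondrial sequence alone was not tested. The rule uses no measured value, but it was set with earlier results of these data known. For 7 of the 23 probe sets the annotated gene was nad1, and for 2 it was nad5.

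Both samples were labelled as hypocotyls, the stem below the seed leaves, of the Col ecotype at growth stage 6.0. Plants were raised in a phytotron at 22 °C with days of 8 h and nights of 16 h, in a mix of compost with vermiculite whose first watering held Intercept. The series set out to find genes of secondary cell wall development in hypocotyls of plants grown in short days, but tissue, ecotype, stage and treatment are labelled alike in both samples. There is thus 1 group, with no contrast and no test, and the comparison that remains is of 1 array with the other, called sample 1 and sample 2 here. The labels do not say whether separate plants were used, so the spread between samples may be technical. The tissue label was not checked against marker genes here.

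Plant mitochondria keep a small genome of their own, which encodes core subunits of the respiratory chain, proteins that attach haem to cytochrome c, part of the mitochondrial ribosome, and a few other proteins. Most other subunits of the same complexes come from nuclear genes, so each complex is assembled from the products of both genomes. Many plant mitochondrial transcripts carry introns and are edited from C to U, and those of nad1, nad2 and nad5 are joined from separately transcribed pieces by trans-splicing. Poly(A) tails in plant mitochondria are known to mark transcripts for decay. The RNA here was copied from an oligo(dT) primer, per the labels, and how that bears on these signals was not tested. In whole organs, fewer mitochondria per cell, fewer cells rich in them and less RNA per mitochondrion cannot be told apart.

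The 16 genes cover part of the genome. Of the 32 symbols of protein-coding genes in the mitochondrial genome of the RefSeq table, 16 had a single-gene probe set, 11 had a place only in probe sets that name several genes, and 5 had neither and were not analysed here. Complex I, the NADH dehydrogenase, had 8 of its 9 mitochondrial genes among the members. Cytochrome c maturation had 4 of 5 and cytochrome oxidase 2 of 3, and both matR, a splicing maturase, and orfX, a transporter gene, were present. ATP synthase, complex III and the ribosomal proteins had no single-gene probe set. No single-gene probe set carried the name of a mitochondrial open reading frame of unknown function. These absences hold for the annotation used, which left 8730 of 22746 plant probe sets unnamed. Whether any of those target mitochondrial genes was not tested.

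Nearly all members gave a signal above the bacterial controls. The limit of detection was set, array by array, at the highest TrpnX control, which targets a bacterial transcript: 2.50 for sample 1 and 3.3 for sample 2. Of the 23 members, 22 passed on both arrays, as did 85.2% of all plant probe sets. Above the brightest of all Bacillus controls, at 13.1 and 12.6, were 20 of the 23, against 70.0% of all plant probe sets. A signal of 50 on both arrays was passed by 15, against 45.1%. Signals are scaled intensities in arbitrary units. Equal amounts of RNA can give unequal brightness on different probes, so signals are compared between arrays for the same probe set, not between genes.

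**Figure D1:**
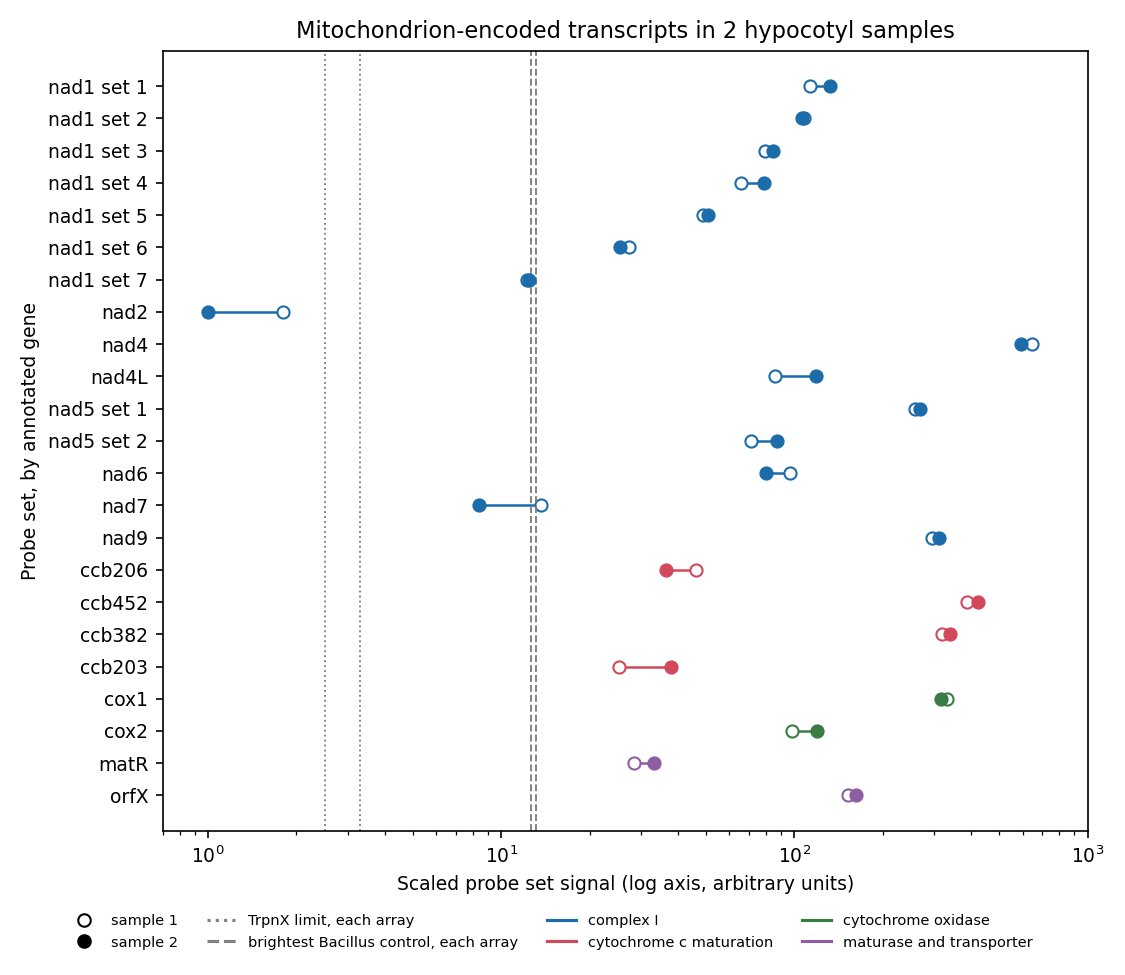
Scaled signal of each of the 23 mitochondrial probe sets (rows, by annotated gene) in sample 1 (open points) and sample 2 (filled points), on a log axis in arbitrary units, with the TrpnX limits (dotted lines) and the brightest Bacillus controls (dashed lines). Of the rows, nad2 lies left of the TrpnX limits, nad7 and nad1 set 7 lie at the dashed lines, and the open and filled points of most other rows nearly meet.

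Complex I oxidises NADH and pumps protons across the inner membrane, and its mitochondrial genes held 15 of the 23 probe sets. The nad4 probe set, for a proton-pumping subunit of the membrane arm, gave 646 in sample 1 and 593 in sample 2. That of nad9, for a subunit of the arm that reaches into the matrix, had 296 and 311. Both signals lay far above all bacterial controls, and each pair differed by a log2 ratio of at most 0.12 in size.

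The small membrane subunit gene nad4L had 85.7 in sample 1 and 118.6 in sample 2, a mean of 102 ± 23.3 (SD, n = 2). Its log2 ratio of sample 2 over sample 1 was 0.47, the highest in complex I. For nad6, another membrane arm subunit, the signals were 96.3 and 80.1, a log2 ratio of -0.27. These neighbours in brightness thus differed in opposite directions between the same arrays.

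Of the nad5 probe sets, which report a proton-pumping subunit, one had 257 and 269 and the other 71.1 and 87.4. Both were higher in sample 2, by log2 ratios of 0.06 and 0.30. Their mean signals differed by a factor of 3.32 although the annotation gives them the same gene. The brighter one carries the name ending that marks probes shared by several transcripts.

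The 7 probe sets annotated as nad1, which encodes the membrane subunit next to the quinone site, spanned mean signals from 12.3 to 122, a factor of 9.96. The brightest had 112.9 in sample 1 and 132.0 in sample 2, and the dimmest had 12.2 and 12.4, below the brightest Bacillus control of either array. Between these lay probe sets with 108 and 106, 79.1 and 84.8, 65.7 and 78.6, 48.9 and 50.6, and 27.2 and 25.5. So wide a range under 1 gene name means that no single nad1 level can be given here. The pieces of this trans-spliced gene lie apart in the genome, and whether some of the 7 report a reading frame of unknown function between them, rather than nad1, was not tested. Their log2 ratios were closer together, from -0.09 to 0.26 with a median of 0.05, and 5 of the 7 were higher in sample 2. The dimmest of all 7 was lower in sample 2 after scaling to the same median, quantile normalization or loess, and it was the one member, among the 22 above the limit, whose direction turned under any of these.

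The dimmest members also belonged to complex I. The nad2 probe set, for a proton-pumping subunit, had 1.80 and 1.00, under the limit on both arrays, and it enters no ratio below. For nad7, the matrix arm subunit that lines the quinone site, the signals were 13.7 in sample 1 and 8.40 in sample 2. The first was just above the brightest Bacillus control of its array and the second below that of the other array. Its log2 ratio of -0.71 was the lowest of all members and rests on signals within the range of bacterial controls, so its size is not interpreted. Each of the 2 genes had 1 probe set here.

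Cytochrome c maturation genes encode the machinery that attaches haem to cytochrome c, and they are named ccm in RefSeq and ccb on this platform. The ccb382 probe set (ccmFN1, a part of the haem lyase) had 318 in sample 1 and 339 in sample 2, a mean of 328 ± 14.4 (SD, n = 2). That of ccb452 (ccmFC, its partner in the lyase) had 388 and 424. Both were bright and differed little, by log2 ratios of 0.09 and 0.13.

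In crucifers the lyase subunit is split between ccb382 and a separate gene, ccb203 (ccmFN2). The ccb203 probe set had 25.2 and 37.9, and its log2 ratio, 0.59, was the highest of all members. For ccb206 (ccmB, a membrane subunit of an ABC transporter of the pathway) the signals were 46.0 and 36.5, a log2 ratio of -0.33. All 4 genes passed the brightest Bacillus controls on both arrays, and the dimmer 2 were those that differed more between the samples.

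Of the cytochrome oxidase genes, which encode the catalytic core of the terminal oxidase, cox1 had 331 in sample 1 and 316 in sample 2. That of cox2, which takes the electrons from cytochrome c, had 98.4 and 119.1. Their log2 ratios were -0.07 and 0.28, so the pair did not share a direction. The maturase gene matR, which lies in an intron of nad1, had 28.3 and 33.3. The gene orfX (mttB, similar to a subunit of bacterial twin-arginine protein transport) had 153 and 163. Both were higher in sample 2, by log2 ratios of 0.23 and 0.09, and both probe sets carry the shared name ending.

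Between the arrays, the mitochondrial transcripts as a set differed little. Over the 22 members above the limit on both arrays, the median log2 ratio was 0.08, against 0.01 over the 19379 plant probe sets that passed the same limit. The SD of the ratio was 0.27 among members and 0.39 among all, without matching for signal. Dim probe sets spread more, and the median mean signal was 88.2 over the 23 members against 42.7 over all plant probe sets. Of the 22, 15 were higher in sample 2 and 7 lower, and 51.8% of all plant probe sets were higher. Members of 1 gene are not independent, and with 1 value per gene, a choice made after seeing the data, the median was 0.09 and 5 of 15 genes were lower.

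No member differed by 2-fold or more, the call used here. Few plant probe sets did, with 2.34% of all higher in sample 2 by that much and 0.908% lower. In either direction it was 0.465% of plant probe sets above the brightest Bacillus controls, and 0.263% above a signal of 50. At shares so small, none among 22 members does not set them apart from other probe sets. At 1.5-fold, ccb203 only just passed as higher in sample 2, and it no longer passed after scaling to the same median, quantile normalization or loess, with log2 ratios of 0.56, 0.55 and 0.56. The nad7 probe set passed as lower under all of these, but its signal in sample 2 lay below a bacterial control. Among all plant probe sets, 6.37% were higher and 3.68% lower at that threshold. No more than 1 of the 22 members passed in either direction.

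The spread between the arrays depends on signal, and each member was set against plant probe sets in the same range of mean signal. For signals of 20 to 50 the SD of the log2 ratio was 0.35, for 50 to 100 it was 0.25 and for 200 to 500 it was 0.20. Within their ranges 14 of the 22 members lay no more than 1 SD from the median ratio, against 75.5% of all plant probe sets. At like signal the members were thus not closer together than other probe sets. Of the members 1, nad4L, lay more than 2 SD away, as did 4.92% of all plant probe sets. The nad4L ratio of 0.47 was just above the central 95% for signals of 100 to 200, which ran from -0.39 to 0.44. Its mean signal of 102 was close to the edge of that range, and the central 95% for signals of 50 to 100 reached 0.51. The ccb203 ratio of 0.59 lay inside its central 95%, which reached 0.73, and so did that of nad7, where the range reached -1.10.

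**Figure D2:**
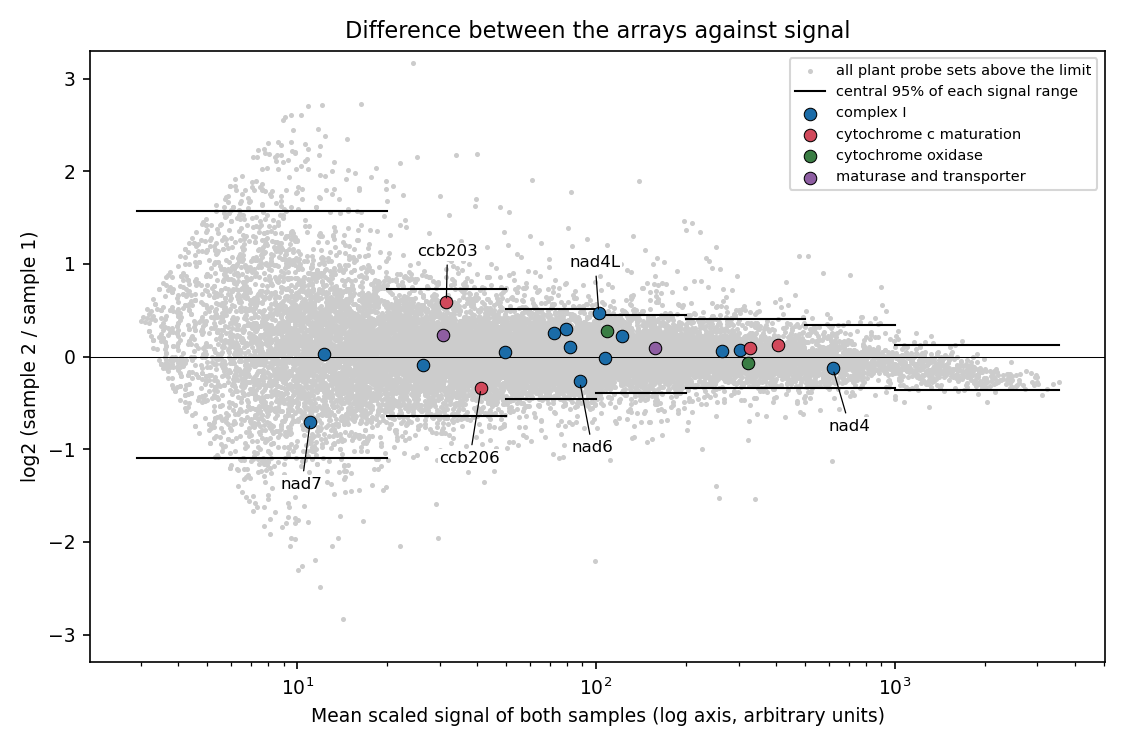
Log2 ratio of sample 2 over sample 1 (vertical axis) against the mean scaled signal of both samples (log axis, arbitrary units) for 19379 plant probe sets that passed the limit (grey) and the 22 mitochondrial members among them (coloured by function), with black lines at the bounds of the central 95% in each signal range. The members lie inside the lines except nad4L, at 0.47, which is just outside near the edge of a signal range.

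By function, the median log2 ratios were 0.06 over the 14 complex I probe sets above the limit, 0.11 over 4 for cytochrome c maturation, 0.10 over 2 for cytochrome oxidase and 0.16 over matR and orfX. In complex I, 9 were higher in sample 2 and 5 lower, but 7 of the 14 carry the name nad1, 5 of them higher and 2 lower. Those 7 also count among the trans-spliced probe sets below, so neither group is a set of separate genes. The groups were not tested against each other, and the SD among the complex I ratios was 0.28. By how the transcripts are spliced, a grouping from textbook knowledge, the median was 0.06 over the 9 probe sets of the trans-spliced nad1 and nad5, 0.09 over the 9 genes with no intron and 0.00 over the 4 with introns spliced in 1 transcript (nad4, nad7, cox2 and ccb452). The trans-spliced ones ranged from -0.09 to 0.30, and those with no intron from -0.33 to 0.59.

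Copies of mitochondrial sequence limit what the probes can tell apart. Chromosome 2 of Arabidopsis carries a large insertion of the mitochondrial genome, so a probe may match transcripts of both. A name ending that marks shared probes was found on 5 of the 23 members (21.7%), those of nad5, nad6, ccb452, matR and orfX, against 4.66% of all plant probe sets. With the 18 others alone, 17 above the limit, the median log2 ratio was 0.07. A further 12 probe sets name several genes, with a mitochondrial one among them, and 11 of these pair it with a gene on chromosome 2. All 12 were above the brightest Bacillus controls on both arrays, against 70.0% of all plant probe sets, and carried the shared ending.

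Of these 12, 9 belong to functions that have no single-gene probe set, 2 to complex I and 1 to cytochrome oxidase, and they are described without gene names. The 6 for ribosomal proteins had mean signals from 73.2 to 737, and 3 were higher in sample 2 and 3 lower. The 2 for ATP synthase, which makes ATP from the proton gradient, had 480 and 429, and 1271 and 1153, both lower in sample 2. The 1 for complex III, which passes electrons to cytochrome c, had 138 and 131. Those for complex I had 33.2 and 34.1, and 23.0 and 21.4, and the 1 for cytochrome oxidase had 161 and 173. No several-gene probe set differed by 1.5-fold between the samples, against 6.37% of all plant probe sets higher in sample 2 and 3.68% lower. Over all 12 the median log2 ratio was -0.08, with 5 higher in sample 2 and 7 lower. In the stretch of chromosome 2 between those paired genes, 20 nuclear genes had a probe set annotated to 1 gene, 15 of them with the shared ending. Whether those 15 also report mitochondrial transcripts was not tested. The limit was passed on each array by 17 of the 20, a share near the 85.2% of all plant probe sets. Their median log2 ratio was -0.12, in a wide range from -1.57 to 0.62. Above the limit, it was -0.12 over the 13 with the shared ending and -0.35 over the 4 with plain names. Of the 17, 1 was lower in sample 2 by 2-fold or more, against 0.908% of all plant probe sets. Another 1 was higher by 1.5-fold or more, against 6.37%. The median mean signal of the 20 was 26.7, and dim probe sets spread more.

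Nuclear genes of the same complexes were bright and near 0 as well. Of 83 listed genes for complexes I to IV, cytochrome c and ATP synthase, 42 had a probe set of their own. The lists do not separate subunits from proteins that help to assemble a complex. Each of the 42 passed a signal of 50 on both arrays with 1 probe set, against 45.1% of all plant probe sets. Their median log2 ratio was -0.02, with 18 higher in sample 2 and 24 lower. That median was above 0 after quantile normalization, at 0.01, and after loess, at 0.02. None passed 1.5-fold, against 6.37% of all plant probe sets higher and 3.68% lower, a share that includes dim ones. A second probe set of SDH2-1, an iron-sulphur subunit of complex II, was under the limit, at 1.90 and 1.00, while the first had 276 and 280. The same gene name thus again stood for probe sets of unlike brightness.

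In the nuclear complex I list the first 4 measured genes by locus were AT2G02050, with 396 in sample 1 and 421 in sample 2, AT2G20360, with 445 and 413, AT3G03070, with 617 and 589, and AT3G06310, with 158 and 170. For complex II the other genes were SDH2-2, a second iron-sulphur subunit gene, with 120.5 and 113.6, and SDH1-1, the flavoprotein, with 155 and 163. In each of these the samples differed by less than in nad4L. For complex III and cytochrome c, AT1G15120 had 385 and 372, CYTC-1, a cytochrome c gene, had 808 and 851, AT1G51980 had 590 and 665, and AT2G01090 had 222 and 211. Cytochrome c is the protein on which the products of the ccb genes act.

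For nuclear cytochrome oxidase genes, AT1G02410 had 100.3 and 110.3, AT1G53030 had 256 and 282, AT1G80230 had 156 and 154, and AT2G47380 had 1258 and 1185. For ATP synthase, AT1G51650 had 674 and 617, AT2G19680 had 94.9 and 111.2, AT4G26210 had 148 and 132, and AT4G29480 had 485 and 463. Both lists held genes that were higher in sample 2 and genes that were lower, 5 and 4 of cytochrome oxidase and 2 and 3 of ATP synthase.

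The remaining nuclear lists were mostly dim, with 1 of 11 probe sets past a signal of 50 on both arrays, against 45.1% of all plant probe sets. CCMH, the measured one of 3 nuclear genes of cytochrome c maturation, had 22.5 and 14.8, and its log2 ratio of -0.60 passed 1.5-fold. The list of alternative oxidases and dehydrogenases holds enzymes that let electrons bypass proton-pumping complexes. Of its 12 genes 4 were measured, all dehydrogenases of the NDB family. Of these, NDB1 had 32.9 and 22.7, NDB2 31.4 and 23.4 and NDB3 28.5 and 32.6, and NDB4 was under the limit at 1.5 and 1.60. Of genes for transcription, splicing and decay of mitochondrial RNA, 6 of 15 were measured, among them OTP43, a splicing factor gene, with 21.2 and 21.1. AT1G74350 had 17.3 and 15.4, AT5G04050 had 29.0 and 36.1, and AT5G14580 had 24.1 and 22.9. Over the 10 probe sets of these lists that passed the limit, the median log2 ratio was -0.12, with 3 higher in sample 2. At such signals the spread between arrays is wide, with an SD of 0.35 between 20 and 50 and 0.63 under 20.

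Probe sets of the chloroplast genome, the other organelle genome, lay on the other side of 0 from the single-gene mitochondrial members. Its 69 single-gene probe sets had a median log2 ratio of -0.13, with 12 higher in sample 2 (17.4%), against 68.2% of the mitochondrial members. They were brighter, with a median mean signal of 472 against 88.2, and the ratio of all plant probe sets varied with signal, from a median of 0.09 under 20 to -0.15 at 1000 or more. After loess removed that trend the medians were 0.08 for the mitochondrial members and -0.07 for chloroplast probe sets. The 12 several-gene probe sets that name a mitochondrial gene had a median of -0.08, and -0.06 after loess, with 5 higher in sample 2 and 7 lower. A median on the other side of 0 from the chloroplast was thus seen for the single-gene members and not for the several-gene probe sets. Of those 12, 11 also name a chromosome 2 gene, so they may not report the mitochondrial genome alone. The difference between the genomes was not tested, since 2 arrays of 1 group allow none and probe sets of 1 array are not replicates.

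**Figure D3:**
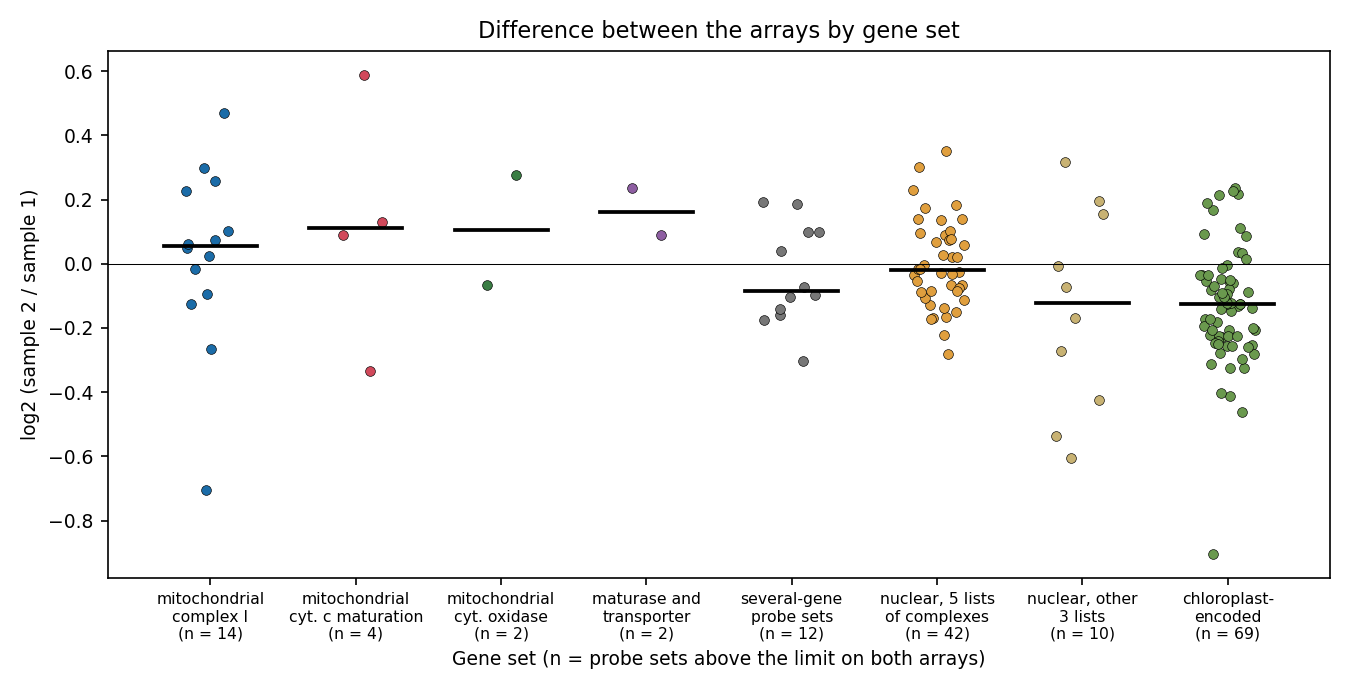
Log2 ratio of sample 2 over sample 1 (vertical axis) for probe sets that passed the limit on each array, by gene set (columns), where each point is a probe set and each bar the set's median. The bars lie at 0.06 to 0.16 for the mitochondrial functions, at -0.08 for the several-gene probe sets, at -0.02 (0.02 after loess) and -0.12 for the nuclear lists and at -0.13 for the chloroplast.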

How the data were processed

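The authors deposited 1 linear intensity for each of 22810 probe sets per array, from biotin-labelled cRNA per the labels' protocols. Software not given in the sources used here made these intensities. The deposited intensities of both arrays had the same mean after trimming 2% at each end. The labels give average backgrounds of 79.94 and 95.57 and average noise of 4.81 and 6.28. Both arrays were rescaled to a trimmed mean of 100, by factors close to 1, and no count includes the 64 control probe sets. Ratios are log2 of sample 2 over sample 1, without a pseudocount. No test was run, and the number of arrays limits the precision.

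Of 14016 annotated probe sets, 13513 had 1 gene and 503 several, and 8730 plant probe sets were unnamed here. All 16 genes matched a RefSeq symbol or synonym (TAIR10.1). No build is named for the values, so no coordinates are given. Members, functional groups and 8 lists of 113 nuclear genes were chosen with earlier results of these data known. The functional groups were written by locus and applied by symbol. Text names every member and, of each nuclear list, up to 4 measured genes in locus order and any past 2-fold. Calculations used Python 3.11.15, numpy 2.4.6, pandas 2.3.3 and statsmodels 0.14.6, with figures from matplotlib 3.10.9, and were tested on simulated data. Alternatives were other scalings, limits, thresholds and probe sets, adding 16 before log2, and leaving out each sample.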

Additional observations from a re-analysis of the deposited data

How the results depend on the processing

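The median log2 ratio of the mitochondrial members stayed above 0 and between 0.06 and 0.09 with loess of span 0.3, quantile normalization, equal medians or unscaled values, each stricter limit, plain probe set names alone, adding 16 before log2, 1 value per gene, and without nad1. The last 2 were chosen after seeing the data. Unscaled values were no separate check of the ratios, since the scaling factors of both arrays were nearly equal. Over all plant probe sets the median log2 ratio lay between -0.01 and 0.01. Members lower in sample 2 numbered 5 to 8 under these, except 4 of 15 at a signal of 50 on both arrays, where fewer members passed. No member reached 2-fold under any of them. At 1.5-fold 2 members passed with the scaling used, but 1, nad7, with equal medians, quantile normalization or loess, as ccb203 lay near the threshold. Members above the limit numbered 22 from either sample alone, 22 at 2 times the limit, 20 at the brightest Bacillus control and 15 at 50. The members' median signal, averaged over samples, was 86.5, and 85.7 to 87.4 from 1 sample. None of 92 recomputed member levels moved by more than 1 SD, and with 2 samples a value from 1 of them cannot. The median of all nuclear partners stayed below 0, from -0.05 to -0.00, under 3 other scalings, but that of the respiratory complexes alone was -0.045 with equal medians, 0.010 with quantile normalization and 0.024 with loess. These scalings, and those at 1.5-fold, were chosen after seeing the data. Leaving out members with a near-identical nuclear protein was not run, as no protein table was given. No paired analysis was possible because the series holds 1 group. Signal over background limits nad2, nad7 and the dimmest nad1 probe set.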
